A study of Saccharomyces cerevisiae with 26 samples.

Results

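Trehalose is the storage and stress sugar of yeast, and the transcripts of the 7 genes that make and degrade it were followed here through a glucose pulse in cells with and without SFP1. The genes were taken by symbol, and each is read by 1 probe set. They are 7 of 5656 genes that the array annotation names singly, and all 7 are among the 5369 genes tested. TPS1 (YBR126C) encodes trehalose 6-phosphate synthase, TPS2 (YDR074W) the phosphatase that removes the phosphate, and TPS3 (YMR261C) and TSL1 (YML100W) related regulatory subunits of the same complex. NTH1 (YDR001C) and NTH2 (YBR001C) encode the neutral trehalases, which split trehalose in the cytosol, and ATH1 (YPR026W) encodes the acid trehalase.

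Yeast is known to hold trehalose when it grows slowly or starves and to degrade it when glucose arrives. The synthesis complex draws on glucose 6-phosphate and UDP-glucose, so trehalose shares its precursors with glycogen. Glucose activates protein kinase A, which activates the Nth1 enzyme and restrains Msn2 and Msn4, the factors that drive many stress genes, trehalose genes among them. The arrays measure transcripts, not enzyme activity or trehalose. A lower signal in a culture may mean fewer cells with the transcript or less transcript per cell, and these cannot be told apart.

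In the deletion strain KlLEU2 replaces SFP1 (sfp1Δ::KlLEU2), whose product is known to drive genes of ribosome production, and the strain also carries the leu2-3,112 allele. The reference strain was CEN.PK113-7D, and both share MATa, MAL2-8c and SUC2. Cultures of both were glucose-limited and aerated, at 30 °C, pH 5.0 and a dilution rate of 0.10 per h, sampled at steady state, then sparged with nitrogen and given 200 mM glucose, with samples at 5, 10, 30, 60 and 120 min. Each strain has 3 steady state arrays and 2 arrays at each time, from cultures described as independent. Arrival of glucose, loss of oxygen and the stopped feed came together and cannot be told apart, nor can the SFP1 deletion and the LEU2 difference.

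Values are signal in arbitrary units, scaled by the authors to the same trimmed mean on every array. The median signal of an array lay between 22.7 and 49.0. Signals under 12 were set to 12, the floor, ahead of the log2 step, and folds that involve floored arrays are given as lower bounds. A change is called where limma gave an adjusted p (Benjamini-Hochberg, over all genes tested) under 0.05. SFP1 itself read 0.2 to 2.9 on the 13 deletion arrays, all under the floor, against 97.2 to 205.1 on the 13 reference arrays. LEU2 read 471.2 to 501.1 in deletion cultures and 1123.3 to 1526.7 in reference cultures at steady state (adjusted p = 0.00924). The a-cell genes STE2, MFA1, MFA2, STE6 and BAR1 were well above the floor in both strains at steady state. Of these 5, 2 were called higher in deletion cultures then (median log2 difference 0.98, against 0.13 over all genes). Among all genes 5.74% were called in either direction. From a list of 3 alpha-cell genes 2 were tested and 1 was called. The alpha-cell gene MF(ALPHA)1 read 603.7 to 721.4 in deletion cultures and 56.4 to 71.9 in reference cultures at steady state (adjusted p = 5.29e-08), and its part in the results was not tested.

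The deletion arrays at 10 and 30 min did not match their replicates. Across genes, the replicates labelled 10 min correlated at 0.805 and those labelled 30 min at 0.796, against 0.970 to 0.993 within the other 10 groups. Replicate 1 at 10 min correlated at 0.978 with replicate 2 at 30 min, and replicate 2 at 10 min at 0.922 with replicate 1 at 30 min. The highest correlation of 30 min replicate 1 was with replicate 1 of 60 min, at 0.924. The ratio of 5′ to 3′ actin signal, a sign of RNA integrity, was 0.00322 on the 30 min replicate 1 array, 0.147 on steady state replicate 1 and 0.247 on 60 min replicate 1 of the deletion strain. It was 0.598 to 0.968 on the other 10 deletion arrays and 0.697 to 0.923 on the reference arrays. The ratio of middle to 3′ actin signal was low on both the 10 min replicate 2 array (0.207) and the 30 min replicate 1 array (0.176) of the deletion strain, against 0.56 to 0.872 on its other 11 arrays and 0.624 to 0.816 on the reference arrays. Labels were kept as given, each array's value is shown, and results are given with and without the 4 deletion arrays of 10 and 30 min, an alternative chosen after the data were seen.

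TPS1 in deletion cultures read 556.1, 415.6 and 485.5 at steady state, 546.6 and 490.5 at 5 min, 571.9 and 50.4 at 10 min, 64.9 and 503.1 at 30 min, 59.5 and 45.3 at 60 min, and 378.0 and 276.8 at 120 min. TPS1 in reference cultures read 420.4, 508.2 and 465.8 at steady state, 374.5 and 437.3 at 5 min, 269.8 and 228.6 at 10 min, 22.8 and 15.2 at 30 min, 27.9 and 34.8 at 60 min, and 128.8 and 115.2 at 120 min. The reference arrays at 30 and 60 min lay far below every steady state array, and both 120 min arrays lay between those levels. In the deletion strain the 60 min arrays were low, and both 120 min arrays were above both reference arrays of that time. The arrays at 10 and 30 min split into a high and a low one at each time.

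TPS2 in deletion cultures read 683.6, 635.1 and 552.8 at steady state, 656.3 and 669.6 at 5 min, 666.1 and 43.7 at 10 min, 41.4 and 790.1 at 30 min, 81.0 and 37.0 at 60 min, and 197.8 and 205.1 at 120 min. TPS2 in reference cultures read 554.7, 241.5 and 570.3 at steady state, 498.1 and 518.5 at 5 min, 256.2 and 303.8 at 10 min, 11.8 and 19.8 at 30 min, 34.7 and 34.5 at 60 min, and 67.3 and 111.6 at 120 min. It followed the course of TPS1, with 1 steady state array of the reference, replicate 2, far below the others. Leaving that array out moved the steady state difference between strains to 0.14, against 0.55 with it, on the log2 scale.

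TSL1 in deletion cultures read 428.0, 307.8 and 357.0 at steady state, 359.2 and 383.6 at 5 min, 351.2 and 28.7 at 10 min, 26.6 and 333.1 at 30 min, 26.4 and 15.7 at 60 min, and 175.7 and 131.0 at 120 min. TSL1 in reference cultures read 282.0, 316.3 and 405.0 at steady state, 257.5 and 321.3 at 5 min, 138.4 and 126.3 at 10 min, 13.9 and 2.9 at 30 min, 8.4 and 10.7 at 60 min, and 28.0 and 32.6 at 120 min. Reference arrays were at or near the floor at 30 and 60 min, and at 120 min the deletion arrays lay above both reference arrays with no overlap.

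TPS3, the relative of TSL1, had another course. TPS3 in deletion cultures read 118.1, 103.6 and 109.7 at steady state, 118.4 and 108.8 at 5 min, 142.7 and 46.3 at 10 min, 53.7 and 124.0 at 30 min, 100.7 and 75.8 at 60 min, and 251.9 and 197.3 at 120 min. TPS3 in reference cultures read 93.6, 101.4 and 115.0 at steady state, 70.3 and 86.3 at 5 min, 69.6 and 51.4 at 10 min, 10.5 and 7.9 at 30 min, 27.6 and 26 at 60 min, and 90.5 and 94.1 at 120 min. By 120 min reference arrays overlapped the steady state range, and both deletion arrays were above every other TPS3 array of the study.

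NTH1 in deletion cultures read 249.8, 254.3 and 175.8 at steady state, 230.8 and 251.8 at 5 min, 358.0 and 344.8 at 10 min, 401.5 and 350.4 at 30 min, 116.4 and 85.9 at 60 min, and 189.2 and 136.2 at 120 min. NTH1 in reference cultures read 206.5, 188.1 and 195.3 at steady state, 220.7 and 217.3 at 5 min, 258.2 and 242.0 at 10 min, 150.3 and 165.7 at 30 min, 35.4 and 23.8 at 60 min, and 73.5 and 61.4 at 120 min. Here the 4 deletion arrays of 10 and 30 min did not split: all 4 lay above every steady state array of the strain. The low point was at 60 min in both strains.

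NTH2 in deletion cultures read 227.9, 221.8 and 263.3 at steady state, 234.4 and 201.9 at 5 min, 88.8 and 46.8 at 10 min, 38.0 and 77.1 at 30 min, 75.8 and 98.3 at 60 min, and 122.9 and 114.5 at 120 min. NTH2 in reference cultures read 232.9, 227.7 and 217.2 at steady state, 158.3 and 179.1 at 5 min, 39.9 and 49.7 at 10 min, 15.2 and 18.2 at 30 min, 38.8 and 38.3 at 60 min, and 54.1 and 50.8 at 120 min. All arrays from 10 min on lay below every steady state array of their strain.

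ATH1 in deletion cultures read 215.4, 185.3 and 188.1 at steady state, 177.0 and 168.0 at 5 min, 104.6 and 34.9 at 10 min, 28.6 and 85.7 at 30 min, 28.1 and 20.2 at 60 min, and 42.5 and 41.6 at 120 min. ATH1 in reference cultures read 229.0, 255.4 and 242.0 at steady state, 156.2 and 148.7 at 5 min, 58.8 and 60.8 at 10 min, 29.5 and 18.6 at 30 min, 21.0 and 23.8 at 60 min, and 18.6 and 22.9 at 120 min. The reference arrays of 30, 60 and 120 min overlapped one another. Reference steady state stood at the top of the order of the 12 groups for ATH1, with no overlap between it and the deletion steady state.

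**Figure D1:**
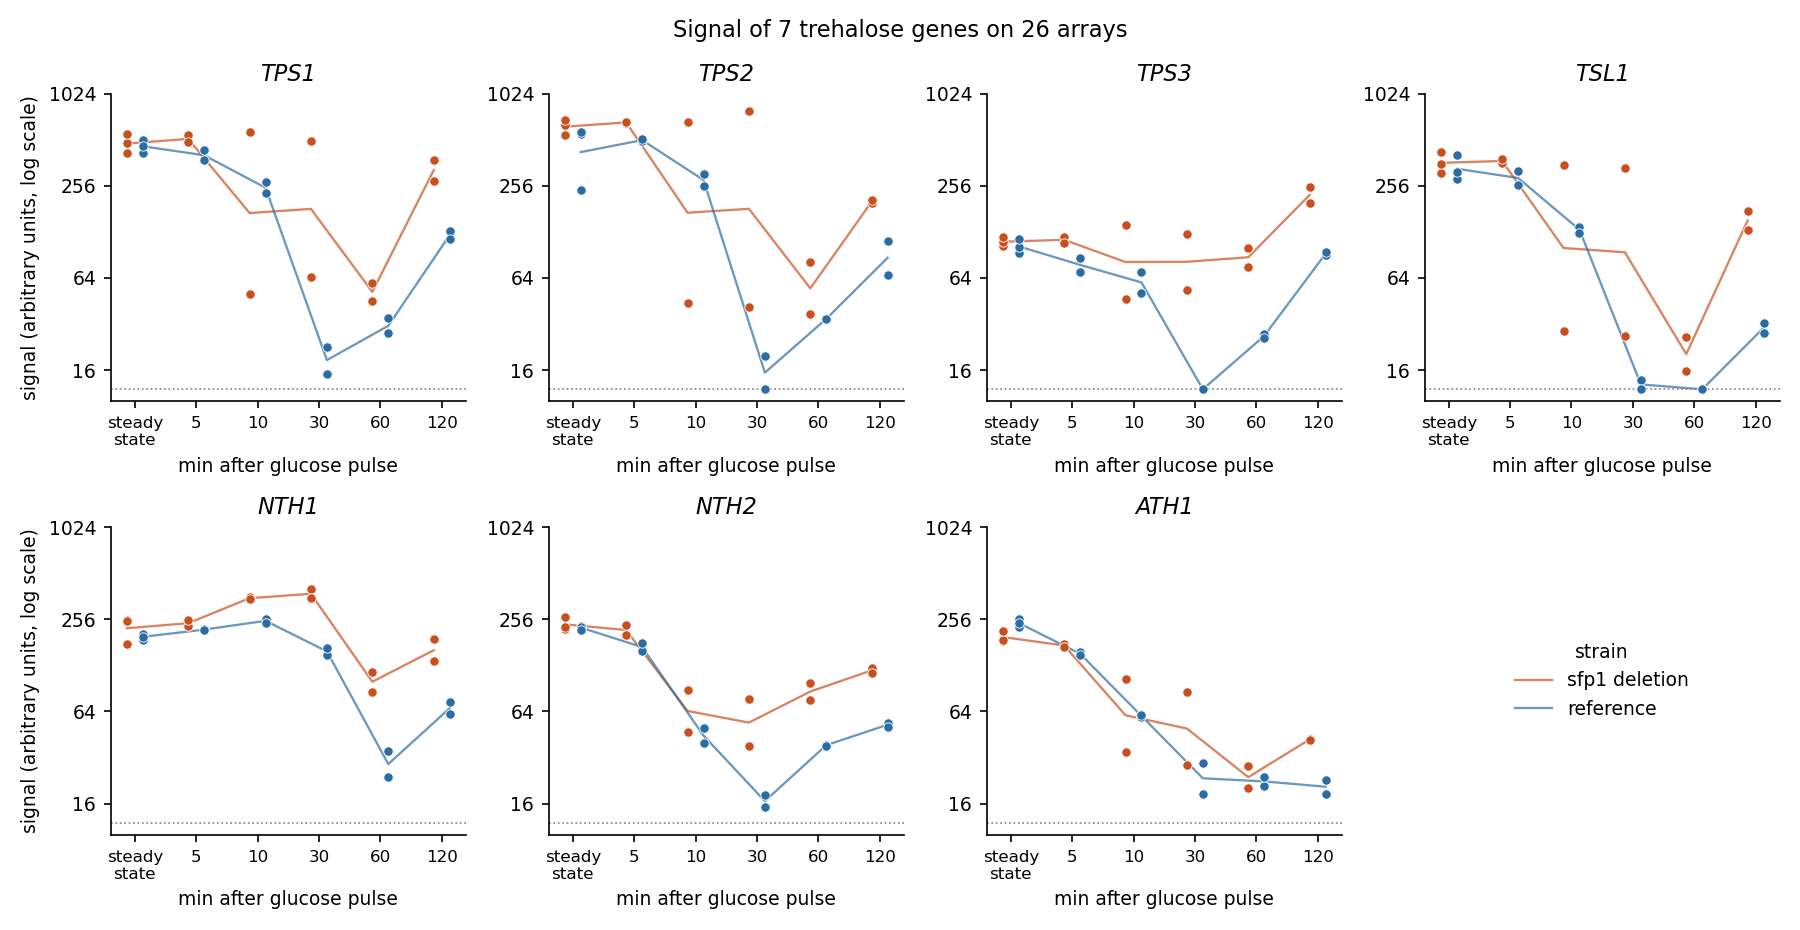
Signal (log2 axis, arbitrary units) of each of the 7 genes at steady state and 5, 10, 30, 60 and 120 min after the pulse. Each point is an array, orange for the sfp1 deletion and blue for the reference strain; lines join means of log2 values, and the dotted line is the floor of 12. The deletion arrays of 10 and 30 min lie far apart for TPS1, TPS2 and TSL1, apart for TPS3, ATH1 and NTH2, and close together for NTH1.

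At steady state, where both strains grew at the same rate, no gene of the 7 was called different between them by limma, and none had an unadjusted p under 0.05. The log2 difference, deletion minus reference, was 0.06 ± 0.66 (SE) for TPS1, 0.10 ± 0.32 for TPS3, 0.13 ± 0.74 for TSL1, 0.19 ± 0.19 for NTH1 and 0.07 ± 0.24 for NTH2. ATH1 averaged 196.3 ± 16.6 in deletion cultures and 242.1 ± 13.2 in reference cultures (SD, n = 3 each), a log2 difference of -0.30 ± 0.35 (adjusted p = 0.686). Of all genes tested 5.74% were called here in either direction. The 95% interval of the difference ran from -0.21 to 0.58 for NTH1 and from -1.33 to 1.44 for TPS1, so differences within those intervals were not excluded in that fit. Its shared estimate of the spread includes the discordant deletion arrays. Without those 4 arrays the SE was 0.17 for TPS1 and 0.18 for NTH1. The background then became 26.5%, and still none of the 7 was called.

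After 5 min no gene of the 7 was called in either strain, where the background was 0.894% in the deletion strain and 1.90% in the reference, and none had an unadjusted p under 0.05. ATH1 alone was called at 5 min in the reference strain once the 4 discordant deletion arrays were left out, with a log2 change of -0.67 ± 0.18 (adjusted p = 0.0287), beside 6.67% of all genes called lower in that fit.

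By 10 min in the reference strain, 2 trehalase genes had fallen. NTH2 averaged 44.8 ± 6.93 at 10 min (SD, n = 2) against 225.9 ± 8.00 at steady state (SD, n = 3), 5.07-fold lower (adjusted p = 7.49e-06). ATH1 averaged 59.8 ± 1.41 at 10 min (SD, n = 2) against 242.1 ± 13.2 at steady state, 4.05-fold lower (adjusted p = 0.00119). These were 2 of the 7 genes, where 17.3% of all genes tested were called lower. The log2 change was -1.32 ± 0.82 for TSL1, -0.90 ± 0.74 for TPS1, -0.78 ± 0.36 for TPS3 and -0.60 ± 0.96 for TPS2, none of them called. Those standard errors include the spread of the discordant deletion arrays, since all groups share 1 estimate. Leaving the 4 arrays out brought 5 of the 7 genes to a call, among 31.6% of all genes: TSL1 (adjusted p = 9.08e-05), TPS1 (0.00108) and TPS3 (0.00114) joined NTH2 and ATH1. NTH1 did not fall at 10 min, with a log2 change of 0.35 ± 0.21 (adjusted p = 0.254).

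At 30 min the synthesis genes of the reference strain were down. TPS1 averaged 19.0 ± 5.37 (SD, n = 2) against 464.8 ± 43.9 at steady state (SD, n = 3), 24.9-fold lower (adjusted p = 3.05e-05). TPS2 was at least 27.5-fold lower (adjusted p = 0.000274), TSL1 at least 25.6-fold (adjusted p = 8.22e-05) and TPS3 at least 8.58-fold (adjusted p = 1.38e-06), each with an array at the floor. NTH2 was 13.6-fold lower (adjusted p = 9.72e-09) and ATH1 10.3-fold lower (adjusted p = 1.48e-06). NTH1, the main cytosolic trehalase, had a log2 change of -0.32 ± 0.21 (adjusted p = 0.194). With 6 of 7 genes called lower, the share of all genes tested was 48.4%. It was 53.0%, with the same count of 6, without the 4 discordant arrays. The median change of the 7 genes was -3.76, against -0.53 over all genes tested. With every array set to a common median, the all-gene median became 0.25 and the NTH1 value 0.64 (adjusted p = 0.0134), a call in the other direction. With only the groups compared in the limma fit, the NTH1 change of -0.32 was called lower (adjusted p = 0.0329).

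NTH1 followed at 60 min, when it averaged 29.6 ± 8.20 in the reference strain (SD, n = 2) against 196.6 ± 9.27 at steady state (SD, n = 3), 6.77-fold lower (adjusted p = 2.26e-08). All 7 genes were then called lower in the reference strain, beside 38.5% of all genes, and 43.8% without the 4 arrays. TSL1 was at least 27.6-fold lower, TPS1 14.9-fold, TPS2 12.3-fold, ATH1 10.8-fold, NTH2 5.86-fold and TPS3 3.84-fold.

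In the reference strain at 120 min 5 of 7 genes were called lower than at steady state, where the background was 28.5%. ATH1 was 11.7-fold lower (adjusted p = 2.93e-06), TSL1 10.9-fold (0.00290), NTH2 4.31-fold (1.24e-05), NTH1 2.93-fold (2.31e-05) and TPS1 3.80-fold (0.0445). TPS2 had a log2 change of -2.29 ± 0.96 (adjusted p = 0.0653), and TPS3 one of -0.16 ± 0.36 (adjusted p = 0.776). The call for TPS1 was lost when any of 22 of the 26 arrays was left out singly (adjusted p up to 0.170). Without the 4 discordant arrays together 6 genes were called, TPS2 added and TPS3 still at adjusted p = 0.460, among 37.4% of all genes.

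Deletion cultures at 10 and 30 min gave called changes for the 3 trehalases and for no synthesis gene. NTH1 averaged 351.4 ± 9.33 at 10 min and 376.0 ± 36.1 at 30 min (SD, n = 2 each), against 226.6 ± 44.1 at steady state (SD, n = 3). It was called higher at both times, 1.57-fold (adjusted p = 0.0252) and 1.68-fold (adjusted p = 0.0133), where the background of higher calls was 6.74% and 6.93%. Without steady state replicate 3, whose NTH1 signal was the lowest of the group, these became 1.39-fold (adjusted p = 0.102) and 1.49-fold (adjusted p = 0.0596). NTH2 fell 3.68-fold at 10 min and 4.38-fold at 30 min, and ATH1 3.24-fold and 3.96-fold, where 25.9% and 23.4% of all genes were called lower. Their arrays also split, with the lower signals on 10 min replicate 2 and 30 min replicate 1. ATH1 read 34.9 and 28.6 on these, against 104.6 and 85.7 on the other arrays, and NTH2 46.8 and 38.0 against 88.8 and 77.1. All 4 arrays lay below every steady state array of the strain for both genes. For the synthesis genes the group values rest on a high and a low array and none was called: the log2 change at 30 min was -1.42 ± 0.74 for TPS1, -1.78 ± 0.96 for TPS2, -0.43 ± 0.36 for TPS3 and -1.94 ± 0.82 for TSL1.

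Which arrays are kept decides the synthesis genes at those times. With replicate 2 of both times left out, TPS1 had a log2 change of 0.25 at 10 min (adjusted p = 0.492) and -2.89 at 30 min (adjusted p = 2.35e-08) in the deletion strain. With replicate 1 of both times left out, it had -3.26 at 10 min (adjusted p = 4.83e-09) and 0.06 at 30 min (adjusted p = 0.887). NTH2 and ATH1 were called lower at both times under either choice. Both arrays with the low synthesis signals, 10 min replicate 2 and 30 min replicate 1, are those with the low middle to 3′ actin ratios (0.207 and 0.176), and the part of RNA integrity in those signals was not tested.

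Deletion cultures at 60 min had 6 of 7 genes called lower than at steady state, beside 24.8% of all genes tested (31.3% and the same count without the 4 arrays). TSL1 averaged 21.1 ± 7.57 at 60 min (SD, n = 2) against 364.3 ± 60.4 at steady state (SD, n = 3), 17.7-fold lower (adjusted p = 0.000752). TPS2 was 11.3-fold lower, TPS1 9.29-fold, ATH1 8.22-fold, NTH2 2.75-fold and NTH1 2.23-fold. The exception was TPS3, with 88.3 ± 17.6 at 60 min (SD, n = 2) against 110.5 ± 7.28 at steady state (SD, n = 3) and a log2 change of -0.34 ± 0.36 (adjusted p = 0.478).

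At 120 min in the deletion strain only NTH2 (2.00-fold, adjusted p = 0.0133) and ATH1 (4.66-fold, adjusted p = 0.000646) were called lower than at steady state, where the background was 12.8%. TPS3 stood above its steady state: it averaged 224.6 ± 38.6 at 120 min (SD, n = 2) against 110.5 ± 7.28 at steady state (SD, n = 3), a log2 change of 1.02 ± 0.36 that just missed the threshold (adjusted p = 0.0541, background of higher calls 8.60%). Further from a call were the fits without deletion steady state replicate 1 (adjusted p = 0.092) and without its replicate 3 (adjusted p = 0.0998). TPS3 was called with quantile normalization (adjusted p = 0.0114), with a common median (0.0302) and without the 4 discordant arrays (0.000119). In the last of these, TPS1, TPS2, TSL1, NTH2 and ATH1 were called lower, 5 of the 7 genes, beside 22.3% of all genes called lower and 19.9% called higher.

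**Figure D2:**
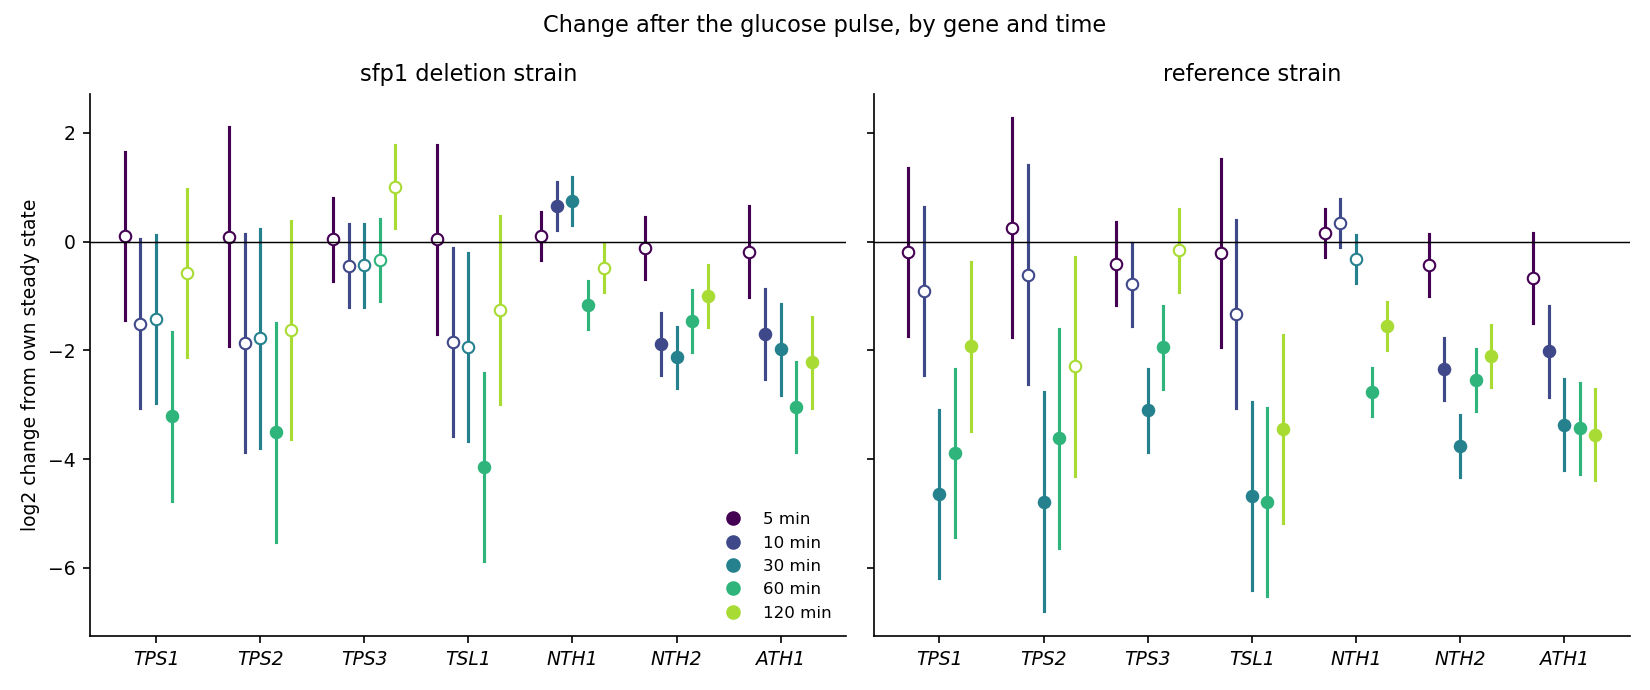
Log2 change from the own strain's steady state for each gene at 5 to 120 min, deletion strain at left and reference strain at right, from all 26 arrays. Points are the fitted change, bars its 95% interval, and filled points passed the adjusted p of 0.05. NTH2 and ATH1 are first called lower at 10 min, the synthesis genes of the reference strain at 30 min and NTH1 at 60 min. Those synthesis genes already lie below 0 at 10 min without a call, and TPS3 is back near 0 in the reference strain at 120 min.

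Recovery was measured directly by setting 120 min against earlier times. Between 120 and 30 min in the reference strain TPS1 was 6.54-fold higher (adjusted p = 0.0139), TPS3 at least 7.69-fold higher (adjusted p = 2.58e-05) and NTH2 3.15-fold higher (adjusted p = 0.000351), beside 25.8% of all genes. NTH1 was 2.35-fold lower at 120 min than at 30 min (adjusted p = 0.000520), beside 10.2% of all genes. Set against 60 min, TPS3 (3.44-fold, adjusted p = 0.00926) and NTH1 (2.31-fold, adjusted p = 0.00332) were higher at 120 min in the reference strain, where 6.52% of all genes were called higher. With a floor of 48 in place of 12, which lifts the low early signals, all 5 of these higher calls were lost, and NTH2 at 120 against 30 min was 1.09-fold higher (adjusted p = 0.938). ATH1 had a log2 difference of -0.12 ± 0.43 over the same hour, with an interval from -1.03 to 0.80. Deletion cultures had no called member between 120 and 60 min, although all 7 differences were positive and 4 had an unadjusted p under 0.05, where 3.48% of all genes were called. TSL1 was 7.45-fold higher (adjusted p = 0.0852) and TPS1 6.23-fold higher (adjusted p = 0.0793) there. Leaving out the 4 arrays brought all 7 to a call in the deletion strain (18.1% of all genes called higher) and 5 in the reference strain (18.8%), where NTH2 (adjusted p = 0.0504) and ATH1 (adjusted p = 0.760) were not called.

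The deletion strain held more of several of these transcripts late in the course. At 60 min TPS3 averaged 88.3 ± 17.6 in deletion cultures and 26.8 ± 1.13 in reference cultures (SD, n = 2 each), 3.26-fold higher (adjusted p = 0.00425). NTH1 averaged 101.2 ± 21.6 in deletion cultures and 29.6 ± 8.20 in reference cultures at 60 min, 3.45-fold higher (adjusted p = 3.97e-05). NTH2 was 2.24-fold higher at 60 min (adjusted p = 0.00744). The same 3 genes were called at 120 min, TPS3 2.42-fold (adjusted p = 0.0317), NTH1 2.39-fold (adjusted p = 0.00194) and NTH2 2.26-fold (adjusted p = 0.0113). Of all genes tested 25.2% were called higher at 60 min and 17.7% at 120 min, and the median over all genes was 0.39 at both times, so the calls stand on a background that was itself higher in the deletion strain. Setting every array to a common median took that all-gene shift to 0.00 at 60 min, where NTH1 kept a difference of 1.29 (adjusted p = 0.000946) and TPS3 one of 1.21 (adjusted p = 0.0275), while NTH2 came to 0.67 (adjusted p = 0.105). At 120 min, where it took the shift to -0.07, NTH1 (0.72, adjusted p = 0.0582), TPS3 (0.73, adjusted p = 0.238) and NTH2 (0.64, adjusted p = 0.165) were no longer called. The call for TPS3 at 60 min was also lost without deletion replicate 1 of that time, an array with a 5′ to 3′ actin ratio of 0.247 (adjusted p = 0.0559), and with a floor of 48 (0.86, adjusted p = 0.104).

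For the other 4 genes the late strain difference was not called on all arrays. TSL1 averaged 153.4 ± 31.6 in deletion cultures and 30.3 ± 3.25 in reference cultures at 120 min (SD, n = 2 each), a log2 difference of 2.33 ± 0.90 (adjusted p = 0.0739). TPS1 averaged 327.4 ± 71.6 in deletion cultures and 122.0 ± 9.62 in reference cultures at 120 min, a log2 difference of 1.41 ± 0.81 (adjusted p = 0.213). ATH1 had a difference of 0.09 ± 0.43 at 60 min, which turned to -0.41 with a common median, and 1.03 ± 0.43 at 120 min. Without the 4 discordant arrays all 7 genes were called higher at 120 min, beside 40.0% of all genes, and 5 at 60 min, all but TPS2 and ATH1, beside 42.6%.

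At 5 and 10 min no strain difference was called among the 7 genes, where 0.894% and 10.0% of all genes were, and 0 and 1 of the 7 had an unadjusted p under 0.05. All 7 were called higher in the deletion strain at 30 min, beside 36.8% of all genes, with NTH1 2.38-fold and NTH2 3.25-fold higher. Both deletion arrays lay above both reference arrays for TPS1, TPS2, TPS3, TSL1, NTH1 and NTH2. With a floor of 48 only NTH1 kept its call at 30 min (NTH2 1.27-fold, adjusted p = 0.290), and with only the groups compared in the fit none of the 7 did (lowest adjusted p = 0.0980, for NTH1). The ATH1 arrays overlapped at 30 min, and its call (adjusted p = 0.0470) was lost when any of 22 of the 26 arrays was left out singly, with a difference of 0.29 without deletion replicate 2. At 10 min the direction for the synthesis genes turns with the arrays kept. TPS1 had a difference of 1.20 (adjusted p = 0.00246) without replicate 2 of both times and of -2.30 (adjusted p = 1.60e-06) without replicate 1.

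**Figure D3:**
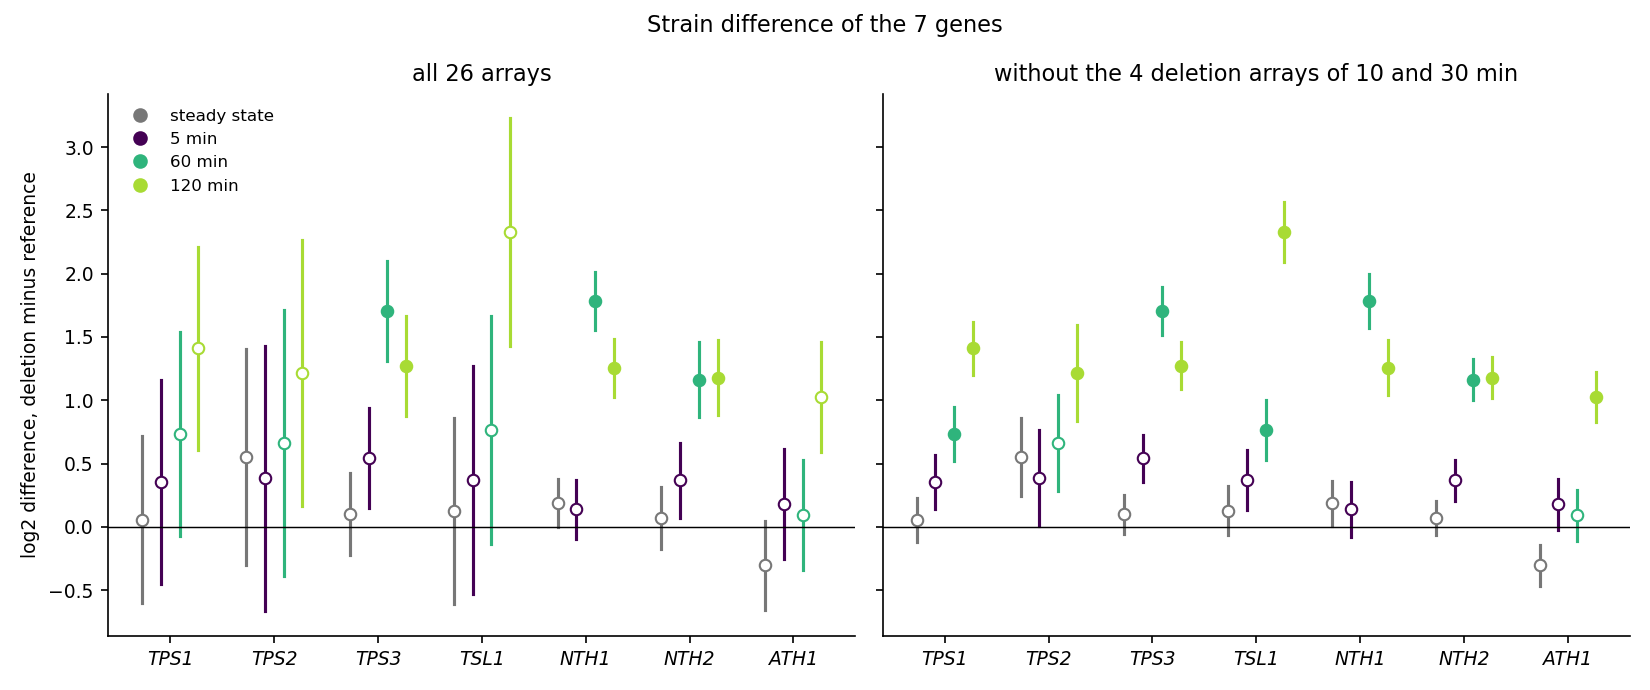
Log2 difference between strains, deletion minus reference, at steady state, 5, 60 and 120 min for each gene, from all 26 arrays at left and without the 4 deletion arrays of 10 and 30 min at right. Bars are 1 SE and filled points passed the adjusted p of 0.05. The differences are the same in both panels, the errors of the synthesis genes are smaller at right, and differences at 120 min lie between 1.03 and 2.33.

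Whether the course itself differed between strains was tested as the deletion strain's change from steady state minus that of the reference. None of the 7 interactions was called at 5, 10 or 120 min by limma, where 0%, 1.40% and 1.90% of all genes were called, and 0, 0 and 4 of the 7 had an unadjusted p under 0.05. At 30 min TPS1 (3.22 ± 1.04, adjusted p = 0.0279), TPS3 (at least 2.67, adjusted p = 0.00138), NTH2 (1.63 ± 0.38, adjusted p = 0.00501) and NTH1 (1.06 ± 0.30, adjusted p = 0.0141) were called, beside 21.1% of all genes called positive. The TPS1 value was 1.74 without deletion replicate 2 of 30 min and 4.70 without replicate 1, so its size rests on the pair of discordant arrays. TPS3 is a lower bound because both reference arrays of 30 min were under the floor. With a floor of 48 the call held for NTH1 and was lost for TPS3 (0.67, adjusted p = 0.350), NTH2 (0.27, adjusted p = 0.574) and TPS1 (1.85, adjusted p = 0.204). At 60 min NTH1 alone was called (1.60 ± 0.30, adjusted p = 0.00492), beside 3.07% of all genes. Its value was 1.13 with quantile normalization (adjusted p = 0.0528), 1.19 with a common median (adjusted p = 0.0374) and 0.87 with a floor of 48 (adjusted p = 0.0626). Leaving the 4 discordant arrays out, TPS3 (1.61, adjusted p = 0.000171), NTH1 (adjusted p = 0.000688) and NTH2 (1.09, adjusted p = 0.00144) were called at 60 min among 18.1% of all genes, and all but TPS2 at 120 min among 15.2%. TSL1 had a value of 2.20 ± 0.31 at 120 min in that fit (adjusted p = 9.80e-05).

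Synthesis genes and trehalases can be set side by side as changes from the own strain's steady state, since levels of different probe sets are not comparable. Per array, the mean change of TPS1, TPS2, TPS3 and TSL1 minus the mean change of NTH1, NTH2 and ATH1 was taken, with no test. In reference cultures this was 0.08 and 0.27 at 5 min, 0.55 and 0.32 at 10 min, -1.85 and -1.78 at 30 min, -0.74 and -0.55 at 60 min, and 0.33 and 0.56 at 120 min. The trehalases had thus fallen further on average at 10 and 120 min, and the synthesis genes at 30 and 60 min. The sign at 120 min in reference cultures rested on TPS3, whose change there was -0.19 and -0.13. TSL1 stood at -3.56 and -3.34 on the same arrays, below the trehalase mean of -2.39 and -2.41. In deletion cultures it was 0.13 and 0.14 at 5 min, 0.72 and -1.60 at 10 min, -1.38 and 0.84 at 30 min, -0.67 and -1.16 at 60 min, and 0.67 and 0.58 at 120 min. At 60 and 120 min the sign was the same in both strains, and at 120 min it leaned on TPS3 in the deletion strain too (1.19 and 0.84).

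The trehalase mean hides a split between the neutral trehalases. The change of NTH1 minus that of NTH2 was 2.89 and 2.48 at 10 min and 3.51 and 3.39 at 30 min in reference cultures, and 0.07 and -0.49 at 60 min. In deletion cultures it was 2.10 and 2.97 at 10 min, 3.49 and 2.27 at 30 min, and 0.70 and -0.11 at 60 min. On every array of 10 and 30 min in both strains NTH2 was below its steady state mean, while NTH1 was below its own on both reference arrays of 30 min and above it on the other 6, and at 60 min the difference was of either sign in both strains. Among the synthesis genes TPS3 and TSL1 parted: the change of TPS3 minus that of TSL1 was 2.23 and 2.30 in deletion cultures and 3.38 and 3.21 in reference cultures at 120 min. TSL1 reference arrays were still near 30 then, while TPS3 had its steady state signal back.

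**Figure D4:**
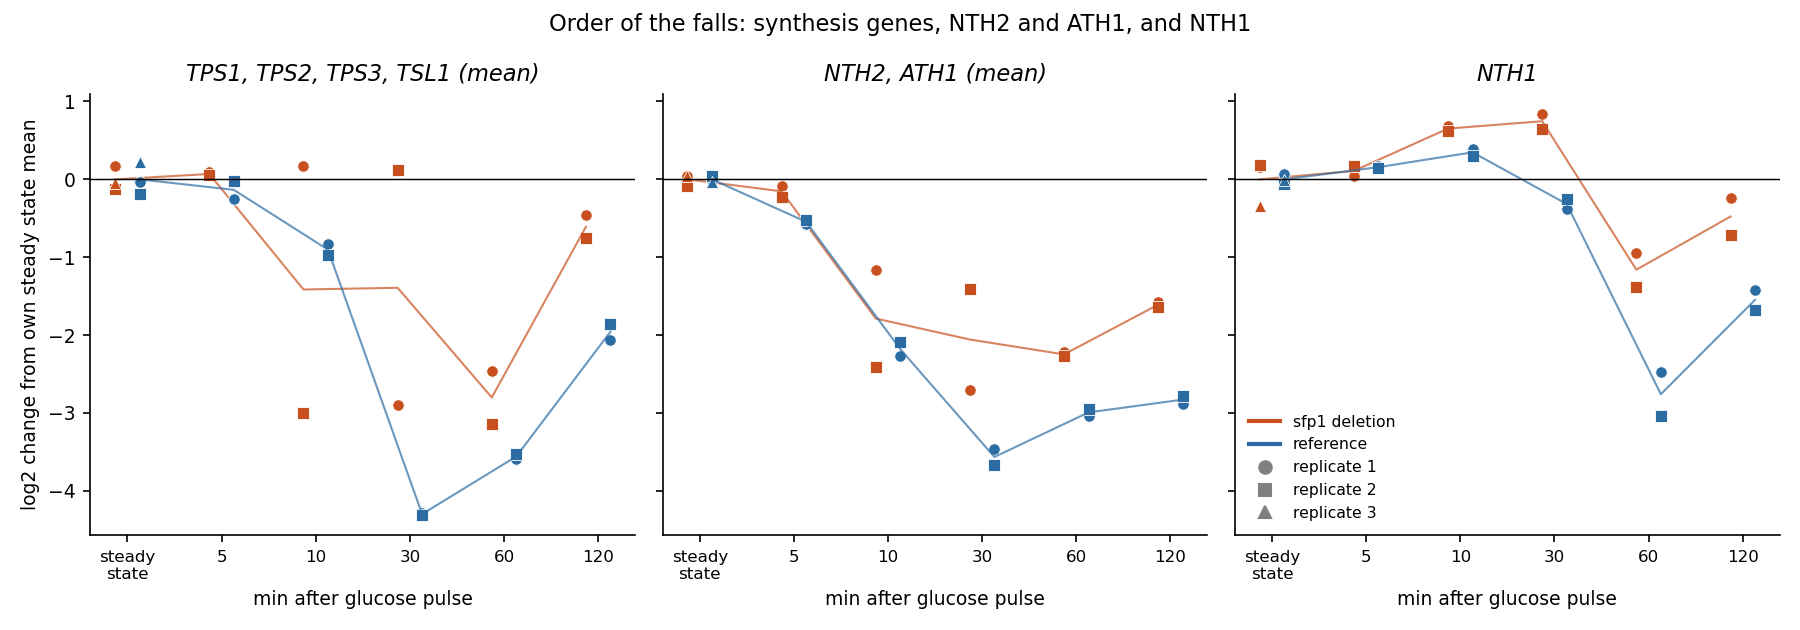
Log2 change per array from the own strain's steady state mean, for the mean of the 4 synthesis genes, the mean of NTH2 and ATH1, and NTH1. Orange is the deletion and blue the reference strain, symbols mark replicate numbers, and lines join group means; at 10 and 30 min the deletion line for the synthesis genes runs between arrays that lie far apart. In reference cultures NTH2 and ATH1 lie at -2.27 and -2.09 at 10 min, when the synthesis genes lie at -0.83 and -0.97.

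Across the 12 group means, TPS1, TPS2 and TSL1 ran closely together (Pearson r 0.972 to 0.982), while TPS3 correlated at 0.677 with TSL1, 0.728 with TPS2 and 0.797 with TPS1. NTH1 correlated at 0.305 with NTH2 and 0.326 with TPS3, and at 0.582 to 0.679 with ATH1, TPS1, TPS2 and TSL1. ATH1 correlated at 0.924 with TSL1 and 0.442 with TPS3. These values describe points that share arrays and strains and include the 10 and 30 min deletion means. The genes outside the 7 with the closest course were GRE3, SYP1 and SAC6 for TPS1 (r 0.988 to 0.989), ATG45, SDH3 and NCE103 for TPS2 (0.989 to 0.995), and SPT16, SEC27 and MSH6 for TPS3 (0.971 to 0.982). ATG42, YGR130C and the glycogen synthase gene GSY2 were closest to TSL1 (0.991 to 0.994). SSE2, HOR7 and ADH6 were closest to NTH1 (0.960 to 0.973), MGR3, SLM1 and HER1 to NTH2 (0.975 to 0.978), and YDL199C, MAG1 and MLG1 to ATH1 (0.989 to 0.993).

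Most genes that feed trehalose synthesis, and all 8 of the glycogen list, were also called lower in the reference strain at 30 min, where 48.4% of all genes were. Of 6 genes that supply hexose phosphate and UDP-glucose, 5 were called lower at 30 min (list median -3.70), with HXK1 38.1-fold, PGM2, the main phosphoglucomutase, 24.0-fold and UGP1, which makes UDP-glucose, 10.4-fold lower. HXK2, the hexokinase of cells growing on glucose, had a change of -0.27 at 30 min (adjusted p = 0.242) and was called higher at 60 min (0.49, adjusted p = 0.0476) and at 120 min (0.74, adjusted p = 0.00686). All 8 glycogen genes were called lower at 30 min (median -3.07) and again at 120 min (median -2.44, beside 28.5% of all genes), among them GLC3, the branching enzyme gene, 19.3-fold lower at 120 min, GPH1, which encodes glycogen phosphorylase, 17.5-fold and GSY2 4.46-fold. In the deletion strain 6 of the 8 were called lower at 120 min (median -2.02), beside 12.8% of all genes. Between strains at 120 min 1 of the 8 glycogen genes was called higher, beside 17.7% of all genes: GLG1, a glycogenin gene, at least 2.17-fold, with both reference arrays at the floor.

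Of 15 genes known to act on trehalose genes or enzymes 14 were tested, and 10 were called lower and 3 higher in the reference strain at 30 min, where 48.4% of all genes were called lower and 19.4% higher. The lower ones included TPK2, a catalytic subunit of protein kinase A (log2 change -4.38), CYR1, adenylate cyclase (-2.80), and BMH2, a 14-3-3 protein (-2.67). The higher ones were PDE2, the high-affinity cAMP phosphodiesterase (2.94), RAS1 (2.37) and TPK3 (1.02), of which RAS1 and TPK3 were named after their values were seen. Between strains at 60 min 4 of the 14 were called higher in the deletion strain, beside 25.2% of all genes, with a list median of 0.29 against 0.39 over all genes. These were MSN4 (2.44-fold, adjusted p = 0.0141), PDE2 (2.49-fold), BMH2 (2.19-fold) and PDE1 (2.04-fold).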

How the data were processed

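Total RNA from 26 samples of chemostat and pulse cultures was hybridised to Affymetrix arrays, 1 array per sample. The deposited values are linear intensity (signal) per probe set, produced with GCOS per the submitters' processing notes; from the values, each array had been scaled by the authors to a trimmed mean of 150.1 to 150.2. They were not normalized again. The number of arrays limits the precision. The labels do not say whether times were sampled from the same cultures, and p-values measure the spread between these arrays.

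The arrays hold 9335 probe sets, 60 of them controls, which were not used. By the platform annotation 6504 probe sets carry 1 gene name, 328 several and 2443 none. For 315 genes with more than 1 probe set, the one with the highest mean log2 signal was kept. Signals were floored at 12, and genes had to exceed that on at least 2 arrays, which removed 287. A 12-group means model was fitted to log2 signal with limma 3.58.1 in R 4.3.3 (lmFit, eBayes with trend, 14 residual degrees of freedom), with p-values adjusted within each contrast over 5369 genes. On simulated data with 100 genes changed per size, the test of 30 min against steady state in the reference strain recovered 49 genes at a log2 change of 1 and 89 at 2. The test of the interaction at 120 min recovered fewer, 23 and 71. Figures were drawn with matplotlib 3.10.9.

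The 7 genes and the related lists were chosen with earlier results of these data known. Every one of the 7 was tested in every comparison, but not every uncalled gene is named in each. Beside them stand the 3 genes with the closest course for each. The plan was to name at most 4 genes from each related list, by largest change. The genes named from the regulators and the general stress list exceed that number. Alternatives covered normalization, the floor, the filter, probe set choice, samples in the fit, a replicate block, the prefix of the array code and leaving out arrays. That prefix was MA on the deletion arrays of 10 min replicate 2, 30 min replicate 2 and 60 min replicate 1, and ES on the others. With it as a term 55 of 58 called member results kept their call.

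Replicate numbers are shared between groups. The correlation of deviations from group means between arrays of the same number ran from -0.719 to 0.356 in the deletion strain and from -0.251 to 0.272 in the reference strain. The lowest deletion value was between the 10 and 30 min arrays. Between reference times after the pulse every value was positive, from 0.0697 to 0.272, and the negative reference values all involved steady state. The main model did not pair samples by number, so a culture shared between times would not be accounted for.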

Additional observations from a re-analysis of the deposited data

Results flagged for a closer look

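For 4 genes the change from steady state differed between strains by a test of the difference itself, all more positive in the deletion strain; 21.1% of all genes were called so at 30 min and 3.07% at 60 min. At 30 min the log2 difference of changes was 3.22 for TPS1, at least 2.67 for TPS3, 1.63 for NTH2 and 1.06 for NTH1. NTH1 had a further difference of 1.60 at 60 min. The 30 min values include the deletion arrays that differ from their replicate: without replicate 2 and without replicate 1 of 30 min, the value was 1.74 and 4.70 for TPS1, 2.06 and 3.27 for TPS3, 1.12 and 2.14 for NTH2, and 1.16 and 0.96 for NTH1. With a floor of 48 the TPS3 value was 0.67 (adjusted p = 0.350), the NTH2 value 0.27 (adjusted p = 0.574) and the NTH1 value at 60 min 0.87 (adjusted p = 0.0626).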

How the results depend on the processing

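Of 58 called member results, 50 kept their call with quantile normalization, 51 with a common median, 42 with a floor of 48 and 41 when only the groups compared entered the fit. Replicate numbers were not taken to pair samples. A replicate block kept 56 of 58, with 0 calls at steady state, 19 in the reference strain, 14 in the deletion strain, 5 interactions, 12 strain differences and 6 late against earlier differences; 4 of 13 deletion and 8 of 13 reference arrays correlated best with their own number.

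Deletion strain calls went to 22, against 14, without the replicate 2 arrays of 10 and 30 min. Interactions, 5 on all arrays, were 2 with quantile normalization or a floor of 48, 12 with only the groups compared, and 19 without the replicate 1 or the replicate 2 arrays. Strain differences, 13 on all arrays, were 8 with a common median or only the groups compared, 6 with a floor of 48 and 23 without either replicate. Late against earlier differences, 6 on all arrays, were 2 with a floor of 48 (5 of the 6 calls lost and 1 gained, TPS3 in the deletion strain), 10 with only the groups compared, and 18 without either replicate, without all 4 arrays or without the arrays of low actin ratio or unlike their replicate. The settings without the replicate 1 arrays, the 4 arrays or the arrays of low actin ratio were chosen after seeing the data. The cause was not tested. Leaving out single arrays gave 0 to 0 calls at steady state, 19 to 22 in the reference strain, 13 to 22 in the deletion strain, 3 to 12 interactions, 10 to 17 strain differences and 3 to 11 late differences.

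Directions turned at 10 min for the synthesis genes with the arrays kept. Without the replicate 2 arrays the interaction was 1.15 for TPS1 and 1.28 for TSL1, and the strain difference 1.20 for TPS1 and 1.41 for TSL1. Without the arrays of low actin ratio or unlike their replicate the interaction was 1.25 for TPS1 and 1.41 for TSL1, and the strain difference 1.20 for TPS1, 1.26 for TPS2 and 1.41 for TSL1. ATH1 had a strain difference at 10 min of 0.81 without the replicate 2 arrays and -0.78 without the replicate 1 arrays. Without replicate 1 of the 10 min deletion arrays alone, the interaction was -2.36 for TPS1 and -2.33 for TSL1, and the strain difference -2.30 for TPS1 and -2.20 for TSL1. NTH1 in the reference strain at 30 min had a change of 0.64 with a common median. The synthesis minus trehalase value of the reference strain at 30 min was -1.99 with quantile normalization, -2.02 with a common median, -0.95 with a floor of 48 and -2.08 with no floor; with a floor of 48 it was -0.37 at 60 min and 0.21 at 120 min, and for the deletion strain at 5 min it was 0.08 with quantile normalization. Signals near the floor limit what can be measured for TSL1, TPS2 and TPS3 in the reference strain at 30 min.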

Other observations

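The general stress genes, a list of 10, were mostly low at 60 min in both strains. In the reference strain 9 of 10 were called lower at 60 min (median -3.66, against -0.27 over all genes), beside 38.5% of all genes. HSP26, a small heat shock protein gene, averaged 27.5 ± 0.21 at 60 min (SD, n = 2) against 1942 ± 416 at steady state (SD, n = 3), 69.7-fold lower. HSP12, a membrane-associated stress protein gene, was 50.7-fold lower and HSP104, which encodes a disaggregase, 32.6-fold lower. In the deletion strain 9 of 10 were also called lower at 60 min (median -3.20), beside 24.8% of all genes. At 10 and 30 min the deletion strain had calls in both directions, 3 higher and 2 lower at 10 min (6.74% and 25.9% of all genes) and 4 higher and 2 lower at 30 min (6.93% and 23.4%).

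Part of the list was higher in deletion cultures late in the course. HSP26 averaged 362.0 ± 27.6 in deletion cultures and 28.9 ± 2.83 in reference cultures at 120 min (SD, n = 2 each), 12.5-fold higher in a limma fit (adjusted p = 2.42e-10). HSP12 was 4.24-fold higher and HSP104 3.46-fold higher. In all, 4 of 10 were called higher at 60 min and 5 of 10 at 120 min, where 25.2% and 17.7% of all genes were called higher and the all-gene median was 0.39. HSP12 at 10 min read 4371 to 5673 and at 30 min 5777 to 6072 in deletion cultures, all above its steady state range of 3457 to 3675. DDR2, a stress gene of the same list, went the other way at 10 min, with a log2 change of -2.13 (adjusted p = 0.0372), as did SSA3 at 30 min (-1.93, adjusted p = 0.0410) and TFS1 at both times (-2.08, adjusted p = 0.0202, and -2.01, adjusted p = 0.0253).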
